A study of Homo sapiens with 18 samples.

Results

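The cadherin superfamily was examined in THP-1 cells as the genes whose protein-coding GENCODE symbol is CDH, CDHR, PCDH, DSG or DSC with a number, a clustered protocadherin (PCDHA, PCDHB or PCDHG) or FAT1 to FAT4. PCDHAC1, PCDHAC2, PCDH11X and PCDH11Y were taken as matching. This gave 105 of the 57500 genes in the deposited count files. THP-1 is a human monocytic leukaemia line. It was studied as 3 stable hairpin lines kept under puromycin, of which shNT carried a non-target short hairpin RNA, shNR4A2 a hairpin against NR4A2 and shNR4A3 a hairpin against NR4A3. Each line was left unstimulated (control) or given lipopolysaccharide (LPS) at 2.5 μg/ml for 2 h, in the same buffered medium, and each of the 6 groups had 3 libraries, 18 in all. Each target was represented by 1 line, so an effect of the hairpin and a difference between lines cannot be told apart. Total counts on genes ran from 16171161 to 23929138 per library, with a median of 19639071.

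Cadherins are calcium-dependent adhesion receptors that pair across neighbouring cells through repeated extracellular domains. Classical cadherins are tied to actin by catenins, desmogleins and desmocollins are tied to intermediate filaments in desmosomes, and the clustered protocadherins give nerve cells a surface identity through combinations of isoforms. Monocytes form no desmosomes, and adhesion in these cells is known mostly through integrins and selectins. The comparisons asked which members THP-1 cells express, which differ when NR4A2 or NR4A3 is knocked down, and which respond to LPS. In bulk RNA, fewer cells with a transcript and less of it per cell cannot be told apart.

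Of the 105 members, 104 had at least 1 count in at least 1 library, and PCDHA11 had none. Of these 104, 88 had 10 counts or more over all libraries, 64 reached a group mean of 0.1 TPM and 21 reached 1 TPM, where TPM is the count per base of exon, scaled to the same total in each library. A count in all 18 libraries was found for 43 members. The summed TPM of the members was 355 ± 16.9 in unstimulated shNT cells (SD, n = 3), 275 ± 12.4 in shNR4A2 cells and 229 ± 37.1 in shNR4A3 cells. It was 285 ± 36.2, 219 ± 50.1 and 188 ± 33.2 in the same lines with LPS. Most of this signal came from few genes. The 53 clustered protocadherins summed to 179 TPM in unstimulated shNT cells, the 7 desmosomal cadherins to 85.1 TPM and the 13 other protocadherins to 37.3 TPM. The 4 FAT genes, which encode giant cadherins, summed to 31.7 TPM, nearly all of it FAT1.

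**Figure D1:**
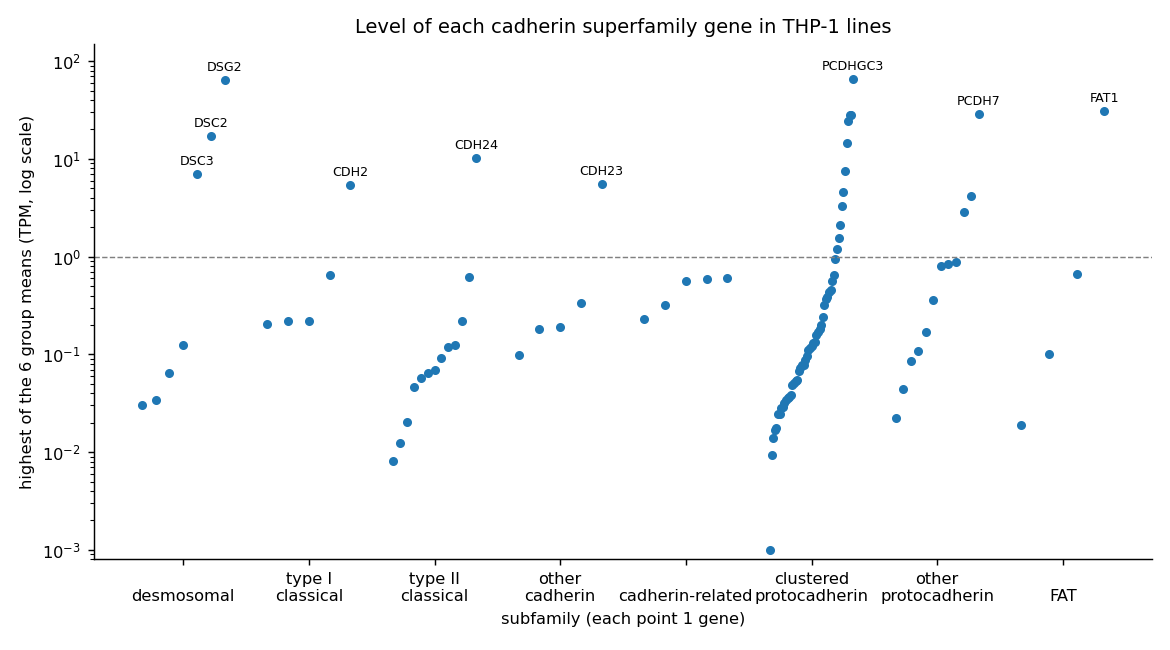
Highest of the 6 group means of each gene (TPM, log axis) by subfamily, 1 point a gene, with PCDH11Y left out and the gene without a count drawn at the bottom; the dashed line marks 1 TPM. The 21 genes on or above the line include 11 clustered protocadherins, 3 desmosomal cadherins, 3 other protocadherins and 1 each of the FAT, type I, type II and other cadherins.

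PCDHGC3, one of the gamma protocadherins, and DSG2, the desmoglein of simple epithelia and heart, were the most abundant members, with highest group means of 66.4 and 63.8 TPM. Their order rested on the group, since in unstimulated shNT cells PCDHGC3 was at 59.3 ± 6.07 TPM and DSG2 at 63.8 ± 3.94 TPM (SD, n = 3), a difference within their spread. FAT1 followed at 31.0 TPM, PCDH7 at 29 TPM and the beta protocadherins PCDHB5, PCDHB2 and PCDHB6 at 28.3, 27.9 and 24.4 TPM, all in unstimulated shNT cells. CDH1 (E-cadherin), named here after its values were seen, had 97 counts over the 18 libraries and no group mean above 0.218 TPM, and CDH5 (VE-cadherin), likewise chosen, had 51 counts. Among the type I cadherins CDH2 (N-cadherin) alone passed 1 TPM, at 5.39 ± 0.399 TPM in unstimulated shNT cells. Among the type II cadherins CDH24 alone did, at 9.72 ± 1.19 TPM.

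The hairpin targets were read first as a check of the labels. NR4A2 was at 3.69 ± 0.743 TPM in unstimulated shNT cells and 1.95 ± 0.402 TPM in shNR4A2 cells (SD, n = 3; log2 fold change -0.91 ± 0.23 SE, adjusted p = 0.0359). With LPS it was at 62.7 ± 11.7 TPM and 21.2 ± 6.78 TPM (-1.52 ± 0.19, adjusted p = 0.00265). NR4A3 was at 0.587 ± 0.0940 TPM in unstimulated shNT cells and 0.0990 ± 0.0636 TPM in shNR4A3 cells (-2.47 ± 0.50, adjusted p = 0.00767). With LPS it was at 31.7 ± 0.708 TPM and 17.3 ± 0.807 TPM (-0.82 ± 0.080, adjusted p = 0.000556). NR4A1, the third member of the receptor family, was not called in any of these 4 comparisons (adjusted p = 0.412 to 0.836).

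Knockdown lines were compared with shNT by edgeR's quasi-likelihood test, fitted on all genes, and a gene was called at an adjusted p under 0.05. The same shNT libraries served both knockdown lines, so the comparisons of shNR4A2 and shNR4A3 cells are not independent of each other. In unstimulated shNR4A2 cells 3 of 33 members tested were called, all lower (DSG2, PCDH7 and PCDHB6), where 6.45% of all genes tested were called, 3.63% higher and 2.82% lower. With LPS 2 of 34 were called, both lower (DSG2 and PCDHB13), against 6.96% of all genes, 4.31% higher and 2.65% lower. In unstimulated shNR4A3 cells 9 of 30 members tested were called, 8 lower and 1 higher, against 7.23% of all genes, 3.91% higher and 3.32% lower. With LPS 7 of 32 were called, 6 lower and 1 higher, against 6.45% of all genes, 3.99% higher and 2.46% lower. The member counts of shNR4A2 cells, and of shNR4A3 cells with LPS, were larger without a filter on low counts, as given with the processing. The median log2 fold change of the members tested was -0.28 and -0.17 in shNR4A2 cells without and with LPS and -0.50 and -0.26 in shNR4A3 cells, while that of all genes tested lay between -0.0085 and -0.0010. Of the 21 member values called in these 4 comparisons, 19 were lower in the knockdown line, in 10 genes, and 2 were higher, both of CDH23.

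Replicate numbers paired the libraries in all 4 comparisons, and the pairing enlarged the counts. With the replicate number as a block, 9 members were called in unstimulated shNR4A2 cells (23.6% of all genes), 12 in LPS-stimulated shNR4A2 cells (28.1% of all genes) and 14 in LPS-stimulated shNR4A3 cells (21.8% of all genes). In unstimulated shNR4A3 cells the block gave 13 (14.8% of all genes). The genes added were DSC2, PCDHB13, PCDHB12, PCDHB14, CDH15 and PCDHGB4 in unstimulated shNR4A2 cells, and PCDH7, PCDHB5, PCDHB2, DSC2, DSC3, PCDHB12, PCDH9, PCDH17, PCDHA1 and CDHR1 in the same line with LPS. They were PCDHB5, CDH2, PCDH12 and PCDHB14 in unstimulated shNR4A3 cells, and PCDHGC3, PCDHGA12, PCDHB9, CDH2, PCDHAC2, PCDH9 and PCDH17 with LPS. Of the genes added, CDH15 was higher than in shNT in unstimulated shNR4A2 cells (1.29, adjusted p = 0.0419), as were DSC3, PCDH9, PCDH17 and CDHR1 with LPS (0.48, 0.89, 1.29 and 1.30). In shNR4A3 cells with LPS PCDH9 and PCDH17 were higher (0.66 and 1.07, adjusted p = 0.0127 and 0.0332). The others added were lower in the knockdown line. Some of the genes added, such as PCDHB14, CDH15 and PCDHGB4 in unstimulated shNR4A2 cells, passed the filter on low counts through the group where they were high. Those calls do not by themselves show a difference.

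**Figure D2:**
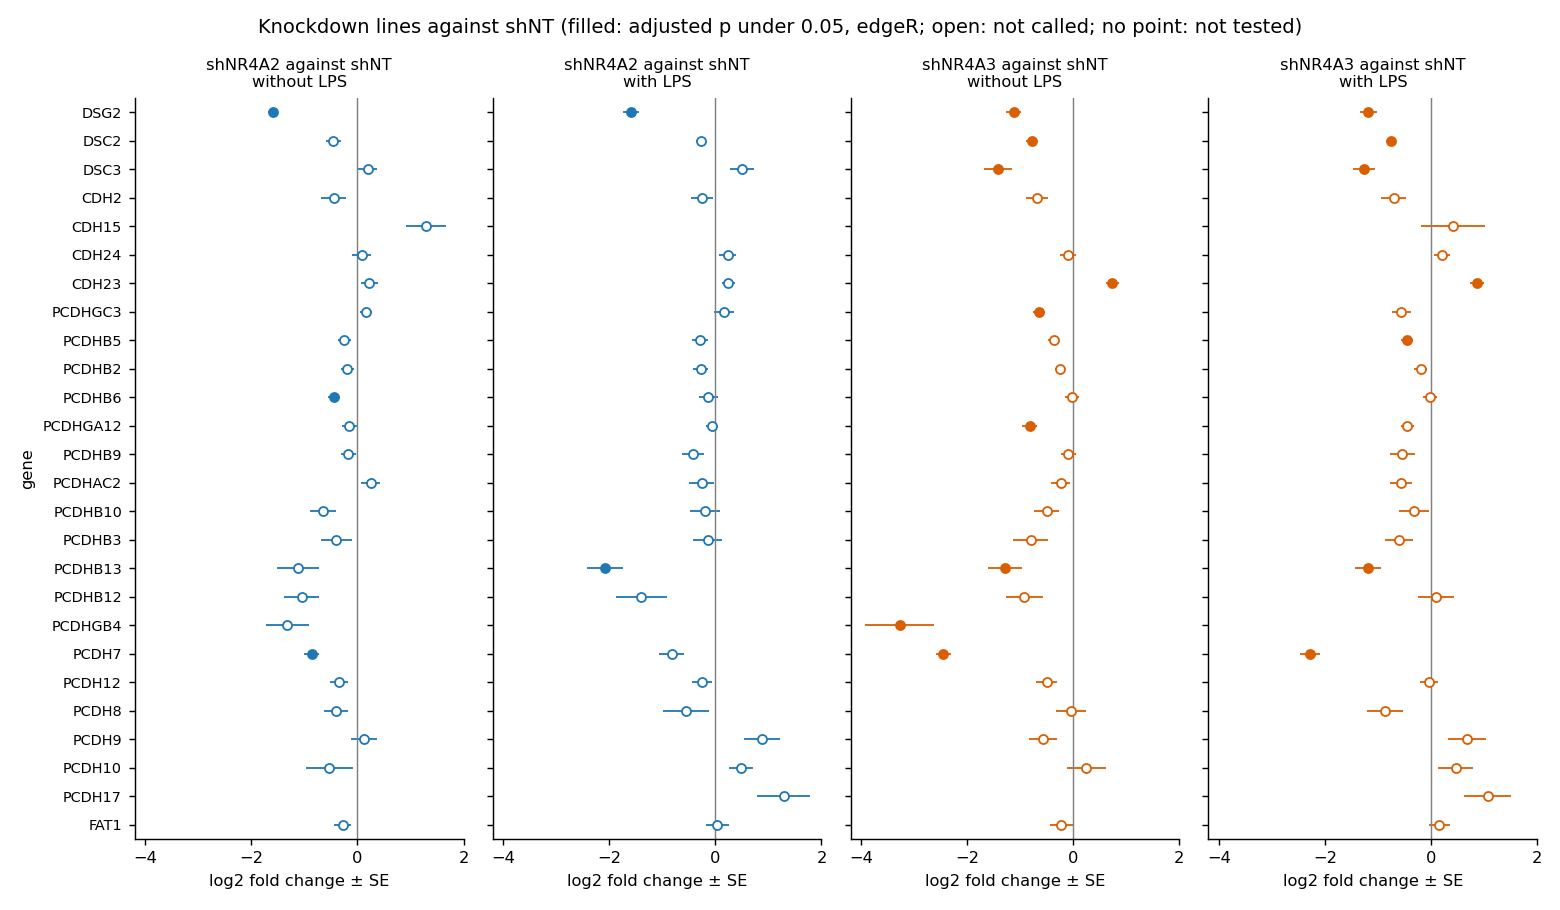
Log2 fold change ± SE (edgeR, x axis) of the 26 named genes (y axis, by subfamily) in each knockdown line against shNT, without and with LPS; filled points passed an adjusted p of 0.05, open points did not, and genes without a point were not tested. DSG2 is filled and left of 0 in all 4 panels, whereas the other desmosomal genes are filled in the shNR4A3 panels alone.

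Among the desmosomal cadherins, DSG2, DSC2 and DSC3 were expressed, and DSG1, DSG3, DSG4 and DSC1 had 6 to 23 counts each over all libraries. The 3 expressed genes lie within 1000000 bases of each other on chromosome 18 of GRCh38, DSC3 at 30990008 to 31042815 and DSC2 at 31058840 to 31102415 on the minus strand and DSG2 at 31498043 to 31549008 on the plus strand. Their promoter windows (RefSeq, GRCh38.p14, 250 bases before to 50 after the start, 5′ to 3′ on the gene's strand) are shown because these genes fell in the knockdown lines, 1 of them in both and the other two in shNR4A3 cells. Capitals mark the core E-box bound by Snail and ZEB repressors (CAGGTG, or CACCTG on the other strand). The NBRE, the site bound by single NR4A receptors (AAAGGTCA or its reverse complement TGACCTTT), was searched on both strands and was not found in them. RefSeq gave 2 windows for DSC2, and the one that holds an E-box is shown.
DSG2, chr18:31497927-31498226, plus strand: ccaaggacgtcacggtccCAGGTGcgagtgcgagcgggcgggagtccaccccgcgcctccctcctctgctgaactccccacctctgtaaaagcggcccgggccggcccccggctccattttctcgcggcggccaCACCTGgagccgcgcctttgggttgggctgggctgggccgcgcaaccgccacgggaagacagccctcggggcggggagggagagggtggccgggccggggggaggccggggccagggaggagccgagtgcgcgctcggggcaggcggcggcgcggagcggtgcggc
DSC2, chr18:31102372-31102671, minus strand: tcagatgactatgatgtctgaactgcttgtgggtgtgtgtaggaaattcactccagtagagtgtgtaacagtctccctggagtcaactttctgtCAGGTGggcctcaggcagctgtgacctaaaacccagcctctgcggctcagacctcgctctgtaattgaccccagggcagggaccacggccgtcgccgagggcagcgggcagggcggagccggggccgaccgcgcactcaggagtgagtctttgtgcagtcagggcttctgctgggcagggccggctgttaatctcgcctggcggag
DSC3, chr18:31042693-31042992, minus strand: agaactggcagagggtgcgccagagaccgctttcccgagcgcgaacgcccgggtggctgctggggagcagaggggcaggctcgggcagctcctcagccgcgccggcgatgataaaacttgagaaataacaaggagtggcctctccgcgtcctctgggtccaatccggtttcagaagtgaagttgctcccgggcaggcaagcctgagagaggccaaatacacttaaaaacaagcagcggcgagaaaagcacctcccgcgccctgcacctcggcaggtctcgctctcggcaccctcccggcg

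The DSG2 window holds 2 E-boxes, with first bases at -232 and -116 from the start, the DSC2 window 1, at -156, and the DSC3 window none. Windows were at hand for 82 of the 105 members. An E-box was in 14 of the 105 windows of these members (13.3%), which belong to 12 genes, and in 20.6% of all 35116 windows. The NBRE was in no member's window and in 1.22% of all windows. A match is a run of letters in this window and was not tested as a binding site.

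DSG2 was lower in both knockdown lines. It was at 60.2, 63.3 and 68.0 TPM in the 3 unstimulated shNT libraries, at 20.6, 21.8 and 20.8 TPM in shNR4A2 cells and at 20, 34.4 and 31.2 TPM in shNR4A3 cells. No knockdown library came near the lowest shNT library. The log2 fold change was -1.60 ± 0.098 SE in shNR4A2 cells, a 3.02-fold lower level (adjusted p = 8.14e-06), and -1.12 ± 0.14 in shNR4A3 cells, 2.18-fold lower (adjusted p = 0.000325). With LPS DSG2 was at 52.5, 70.1 and 56.4 TPM in shNT cells, at 15.1, 24.6 and 17.9 TPM in shNR4A2 cells and at 19.8, 33.6 and 22.8 TPM in shNR4A3 cells. The groups again did not overlap, with log2 fold changes of -1.59 ± 0.15 (adjusted p = 0.000635) and -1.18 ± 0.16 (adjusted p = 0.00295). No single library decided these 4 calls, and with each left out in turn the values lay between -1.75 and -0.94. DSG2 did not pass the test between the knockdown lines, at -0.48 ± 0.16 in shNR4A2 relative to shNR4A3 cells without LPS (95% interval -0.79 to -0.16, adjusted p = 0.149) and -0.40 ± 0.19 with LPS (-0.77 to -0.03, adjusted p = 0.311). With the replicate block it did, at adjusted p = 0.018 without and 0.0011 with LPS. Without LPS it also passed with no filter on low counts and without shNR4A3 control replicate 1.

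DSC2, the desmocollin found with DSG2 in simple epithelia, was called lower in shNR4A3 cells. Its unstimulated values were 19, 13.9 and 19.2 TPM in shNT cells, 13.8, 10.3 and 13.8 TPM in shNR4A2 cells and 9.07, 9.64 and 10.6 TPM in shNR4A3 cells. Every shNR4A3 library was below every shNT library, and the log2 fold change was -0.78 ± 0.12 (adjusted p = 0.00119). It was -0.75 ± 0.092 with LPS (adjusted p = 0.0018). In shNR4A2 cells it was -0.45 ± 0.14 (adjusted p = 0.0794) and with LPS -0.27 ± 0.093 (adjusted p = 0.124), neither called, and both were called with the replicate block (adjusted p = 0.00042 and 0.0072). The unstimulated value was also called by DESeq2 (adjusted p = 0.0347), with all 18 libraries in 1 fit, with no filter on low counts and without shNT control replicate 2, so the lack of a call in shNR4A2 cells rested on the setting.

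DSC3, a desmocollin of stratified epithelia, was called lower in shNR4A3 cells and was not called in shNR4A2 cells. Unstimulated it was at 3.61, 2.83 and 4.93 TPM in shNT cells, at 4.06, 4.19 and 4.66 TPM in shNR4A2 cells and at 0.734, 1.73 and 1.66 TPM in shNR4A3 cells. The shNR4A3 libraries were the lowest of all, and the shNR4A2 libraries lay within the range of shNT. The log2 fold change in shNR4A3 cells was -1.42 ± 0.27, 2.67-fold lower (adjusted p = 0.00606), and with LPS -1.26 ± 0.21 (adjusted p = 0.0073). In shNR4A2 cells it was 0.19 ± 0.18 (adjusted p = 0.614) and with LPS 0.50 ± 0.23 (adjusted p = 0.223), the latter called with the block at adjusted p = 0.0013. Between the knockdown lines DSC3 was 3.05-fold higher in shNR4A2 than in shNR4A3 cells without LPS (1.61 ± 0.25, adjusted p = 0.00363) and 3.39-fold higher with LPS (1.76 ± 0.26, adjusted p = 0.0127). The call with LPS was lost without shNR4A3 LPS replicate 1 (adjusted p = 0.0637).

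Genes around DSG2 were read within 1000000 bases on either side. DSC2 and DSC3 were called as above. B4GALT6, TRAPPC8, RNF125, RNF138 and GAREM1, the other protein-coding neighbours with enough counts to be tested in all 4 knockdown comparisons, were not called in any of them. The deposited counts could not be split by strand, and 2.76% of the exon bases of DSG2 lie under DSG2-AS1, which had 27 counts in all libraries.

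PCDH7, a protocadherin encoded on the plus strand of chromosome 4 at 30720415 to 31146805, fell in both knockdown lines. It is best known from brain, endothelium and metastatic carcinoma. No other gene within 1000000 bases had more than 20 counts in all. Its promoter window is shown for that reason, and it holds no E-box and no NBRE, so it has no capitals.
PCDH7, chr4:30720119-30720418, plus strand: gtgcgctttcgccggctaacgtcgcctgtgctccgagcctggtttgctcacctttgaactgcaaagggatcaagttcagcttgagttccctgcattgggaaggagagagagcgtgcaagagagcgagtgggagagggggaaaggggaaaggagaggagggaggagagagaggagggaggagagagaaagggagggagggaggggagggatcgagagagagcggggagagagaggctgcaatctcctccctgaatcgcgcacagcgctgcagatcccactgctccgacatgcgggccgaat

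Unstimulated PCDH7 was at 24.9, 31.3 and 30.9 TPM in shNT cells, at 13.5, 18.8 and 15.5 TPM in shNR4A2 cells and at 4.02, 5.71 and 5.75 TPM in shNR4A3 cells. The 3 lines formed 3 separate ranges. The log2 fold change against shNT was -0.86 ± 0.14 in shNR4A2 cells, 1.82-fold lower (adjusted p = 0.00448), and -2.45 ± 0.14 in shNR4A3 cells, 5.46-fold lower (adjusted p = 3.2e-07). With LPS it was at 24.5, 36.2 and 25.2 TPM in shNT cells, at 11, 23.8 and 12.5 TPM in shNR4A2 cells and at 4.13, 7.55 and 5.39 TPM in shNR4A3 cells. The order of the lines was kept, and replicate 2 was the highest library of each. PCDH7 was 4.87-fold lower in shNR4A3 cells with LPS (-2.28 ± 0.19, adjusted p = 0.000249). In shNR4A2 cells with LPS it missed the limit, at -0.82 ± 0.23 (adjusted p = 0.0697), and passed it with the replicate block (adjusted p = 3e-13), with DESeq2 (adjusted p = 0.0068), with all 18 libraries in 1 fit, with no filter on low counts and without shNR4A2 LPS replicate 2. The difference between the knockdown lines was itself called, at 3.00-fold without LPS (1.59 ± 0.16, adjusted p = 0.000169) and 2.76-fold with LPS (1.46 ± 0.27, adjusted p = 0.0346). The latter was lost without shNR4A3 LPS replicate 1 or 3, with adjusted p up to 0.143.

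**Figure D3:**
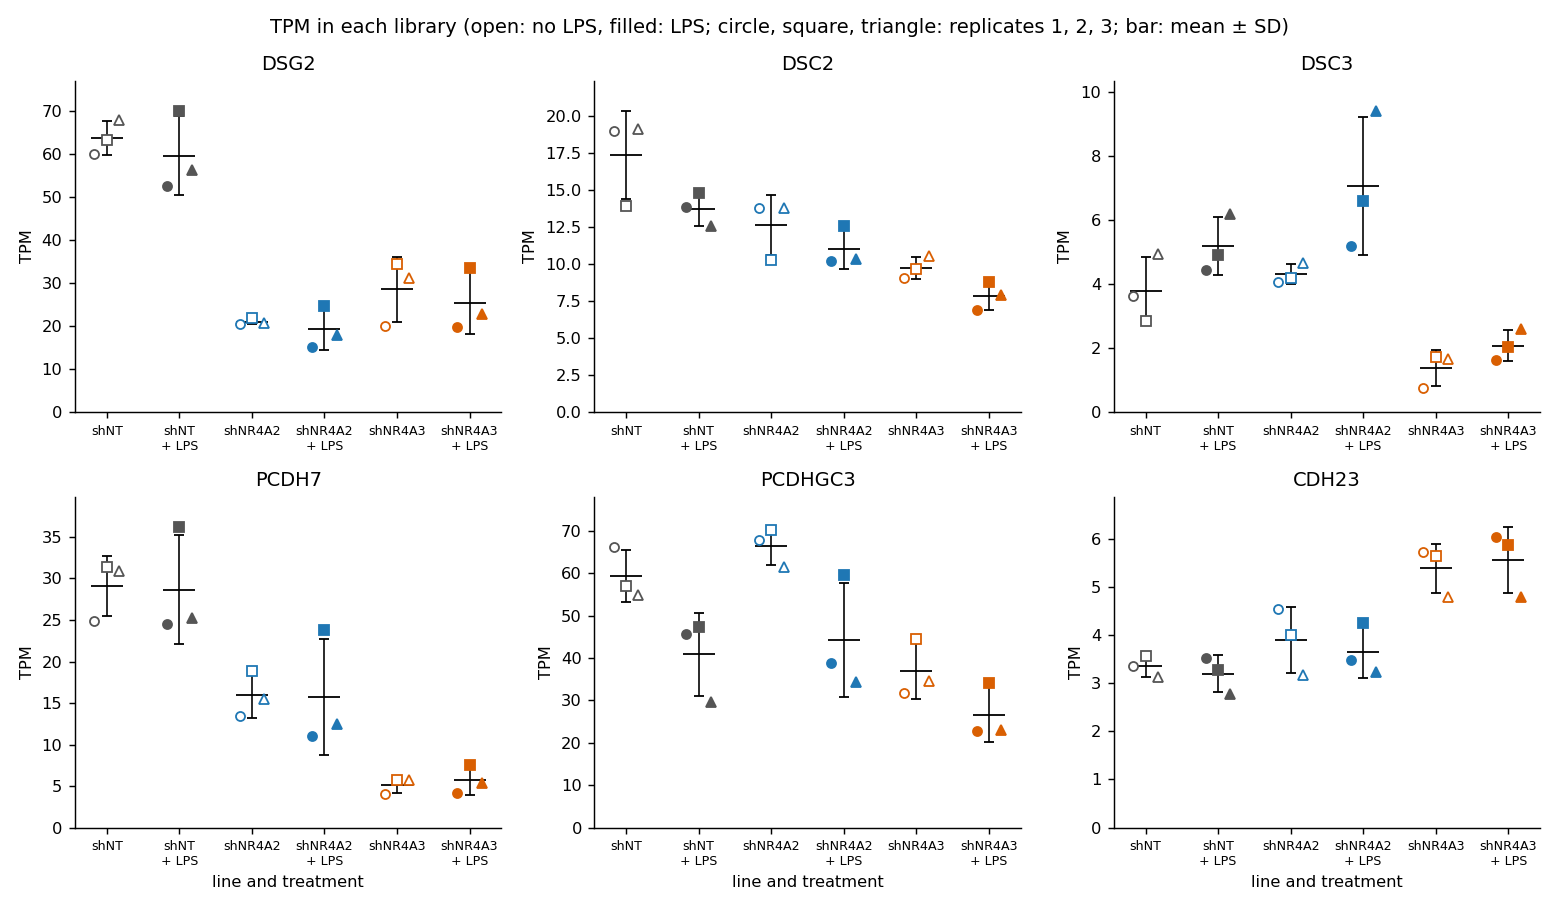
TPM (y axis) of 6 genes in each of the 18 libraries by line and treatment (x axis), with open symbols for unstimulated and filled symbols for LPS-stimulated cells, a circle, square or triangle for replicate 1, 2 or 3, and bars for mean ± SD. DSG2 is lower in both knockdown lines, PCDH7 is lower still in shNR4A3 cells, DSC3 and unstimulated PCDHGC3 are lower in shNR4A3 cells than in both other lines, and CDH23 is higher there than in shNT cells.

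Clustered protocadherins lie in 3 arrays on chromosome 5. In unstimulated shNT cells the 16 beta genes, each a single exon of its own, summed to 98.4 TPM, the 22 gamma genes to 76.3 TPM and the 15 alpha genes to 4.35 TPM. The alpha and gamma genes have constant exons in common, so that reads there fit many genes. The gamma genes have 2181 exon bases in common, 40.15% of the exon bases of PCDHGC3 and 45.3% of those of PCDHGA12, and 64.39% of the exon bases of PCDHGB4 lie in other genes too. How the authors assigned such reads is not given in the sources used here, and the counts of these genes are uncertain for that reason.

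The gamma genes that passed the test fell in shNR4A3 cells. PCDHGC3 was at 66.2, 56.9 and 54.8 TPM in unstimulated shNT cells, 67.8, 70.1 and 61.4 TPM in shNR4A2 cells and 31.7, 44.4 and 34.5 TPM in shNR4A3 cells. All shNR4A3 libraries were below those of the other lines, with a log2 fold change against shNT of -0.64 ± 0.12 (adjusted p = 0.00429). It was -0.56 ± 0.18 with LPS (adjusted p = 0.0912), called with the block at adjusted p = 0.00086 and also by DESeq2, with no filter on low counts and without shNR4A3 LPS replicate 2 or shNT LPS replicate 3. PCDHGA12 was at 14.4, 14.1 and 15.4 TPM in unstimulated shNT cells and at 6.50, 9.49 and 8.06 TPM in shNR4A3 cells (-0.83 ± 0.13, adjusted p = 0.0021). With LPS it was at -0.45 ± 0.12 (adjusted p = 0.053), called with the block at adjusted p = 0.0093 and also by DESeq2, with all 18 libraries in 1 fit and with no filter on low counts. PCDHGB4 had 12, 14 and 21 counts in unstimulated shNT libraries and 0, 2 and 2 in shNR4A3 libraries (-3.27 ± 0.65, adjusted p = 0.00622), and DESeq2 gave it no adjusted p. It passed the filter on low counts through the shNT libraries alone, where it was high, so its test does not by itself show a fall. In shNR4A2 cells PCDHGC3 did not pass, at 0.17 ± 0.11 (adjusted p = 0.448), and it was called higher in shNR4A2 than in shNR4A3 cells without LPS, 1.75-fold (0.81 ± 0.12, adjusted p = 0.00304). With LPS that difference was 1.66-fold and not called (0.73 ± 0.19, adjusted p = 0.0924). It passed with the replicate block, with DESeq2 (adjusted p = 0.0088), with all 18 libraries in 1 fit and with no filter on low counts.

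Of the 16 beta genes 9 were tested in each knockdown comparison. All 9 had a log2 fold change below 0 in shNR4A2 cells without and with LPS and in unstimulated shNR4A3 cells, and 8 did in shNR4A3 cells with LPS, with medians of -0.45, -0.30, -0.50 and -0.45. Some of the 9 passed the filter on low counts through the shNT libraries, where they were high. Examples are PCDHB14 in both unstimulated comparisons and PCDHB12 and PCDHB13 in shNR4A2 cells with LPS. That favours values below 0, so these counts and medians do not by themselves show a fall of the beta genes. Singly 1, 1, 1 and 2 of the 9 passed the test, where 6.45%, 6.96%, 7.23% and 6.45% of all genes did. PCDHB13 was at 1.67, 1.69 and 1.13 TPM in unstimulated shNT cells, 0.730, 1.05 and 0.293 TPM in shNR4A2 cells and 0.473, 0.760 and 0.551 TPM in shNR4A3 cells. Its log2 fold change was -1.12 ± 0.40 in unstimulated shNR4A2 cells (adjusted p = 0.124, with the block 0.012) and -2.08 ± 0.34 with LPS (adjusted p = 0.00862). With LPS it had 45, 47 and 45 counts in shNT and 4, 14 and 11 in shNR4A2 libraries. In both shNR4A2 comparisons it passed the filter on low counts through the shNT libraries, where it was high. These tests therefore do not by themselves show a fall. In shNR4A3 cells the log2 fold change was -1.29 ± 0.32 and -1.19 ± 0.24 without and with LPS (adjusted p = 0.0246 and 0.0183), calls that were lost without any of several single libraries, with adjusted p up to 0.103. DESeq2 did not make the unstimulated call (adjusted p = 0.0554). PCDHB6 was lower in unstimulated shNR4A2 cells (-0.45 ± 0.11, adjusted p = 0.0374) and PCDHB5 in LPS-stimulated shNR4A3 cells (-0.45 ± 0.11, adjusted p = 0.043). Both were lost when any of several single libraries was left out, with adjusted p up to 0.128 and 0.163, and that of PCDHB6 also with all 18 libraries in 1 fit and with no filter on low counts (adjusted p up to 0.081). PCDHB2, at 27.9 ± 0.525 TPM in unstimulated shNT cells, did not pass in any of the 4, with log2 fold changes from -0.28 to -0.19, and passed with the block in LPS-stimulated shNR4A2 cells (adjusted p = 0.0136). PCDHAC2, the most abundant alpha gene at 3.83 ± 0.700 TPM, was called with the block alone, in LPS-stimulated shNR4A3 cells (adjusted p = 0.0472).

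CDH23, a long cadherin of the tip links of hair cells, was the member edgeR called higher than in shNT with low counts filtered, no replicate block and only the libraries of a comparison fitted. It was at 3.36, 3.56 and 3.13 TPM in unstimulated shNT cells, 4.53, 4.00 and 3.16 TPM in shNR4A2 cells and 5.72, 5.65 and 4.80 TPM in shNR4A3 cells. The shNR4A3 libraries were above all others. The log2 fold change was 0.73 ± 0.12 (adjusted p = 0.0027), and 0.86 ± 0.13 with LPS (adjusted p = 0.00428). In shNR4A2 cells it did not pass (0.22 ± 0.16 and 0.24 ± 0.13, adjusted p = 0.465 and 0.286). C10orf105, on the other strand, lies over 19.41% of the exon bases of CDH23. The strand setting of the counts is not given, so whether its reads were counted for CDH23 is not known.

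The most abundant classical and FAT genes were not called by edgeR in any knockdown comparison with low counts filtered and no block. CDH2 was at 4.97, 5.43 and 5.76 TPM in unstimulated shNT cells and 2.21, 4.43 and 3.18 TPM in shNR4A3 cells (-0.68 ± 0.21, 95% interval -1.09 to -0.27, adjusted p = 0.0697, with the block 0.0196), and it also passed with no filter on low counts and without shNR4A3 control replicate 2. CDH24 differed from shNT by -0.10 to 0.23 on the log2 scale over the 4 comparisons, and FAT1 by -0.28 to 0.15. FAT1 ranged from 15.1 to 41.2 TPM over the unstimulated libraries, and the lines overlapped. PCDH12, an endothelial protocadherin, was at 4.21 ± 0.543 TPM in unstimulated shNT cells and was called with the block alone, in unstimulated shNR4A3 cells (adjusted p = 0.0387). CDH15, the muscle cadherin, had 5 to 8 counts in unstimulated shNT libraries, 15 to 21 in shNR4A2 libraries and 3 to 5 in shNR4A3 libraries. It was called between the knockdown lines (1.77 ± 0.44, adjusted p = 0.0443), a call that was lost whichever single library was left out and with all 18 libraries in 1 fit. CDH15 passed the filter on low counts through the shNR4A2 libraries, where it was high, so that call does not by itself show a difference.

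Between the knockdown lines 4 of 30 members tested were called without LPS, all higher in shNR4A2 cells (PCDHGC3, PCDH7, DSC3 and CDH15), where 3.08% of all genes were called, 1.94% higher and 1.14% lower. With LPS 4 of 33 were called, 3 higher (PCDH7, DSC2 and DSC3) and 1 lower (CDH23), against 2.33% of all genes, 1.27% higher and 1.06% lower. Leaving out 1 library gave 0 to 2 with LPS, with 0 without shNR4A3 LPS replicate 1. More members were called without LPS when low counts were not filtered, as given with the processing. Replicate numbers paired the libraries here too, and the block gave 10 members without LPS (11.6% of all genes) and 8 with LPS (23.6% of all genes). The genes added were DSG2, PCDHB6, DSC2, PCDHGA12, CDH23 and PCDHAC2 without LPS and PCDHGC3, DSG2, PCDHGA12 and PCDHB12 with LPS. DSC2 with LPS was 1.40-fold higher in shNR4A2 cells (0.49 ± 0.10, adjusted p = 0.0455) and CDH23 1.53-fold lower (-0.61 ± 0.13, adjusted p = 0.0494). Leaving out any single library ended both calls, with adjusted p up to 0.175 and 0.167.

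The members called with LPS were clustered protocadherins, protocadherins outside the clusters and DSC3. In shNT cells 5 of 33 members tested were called, 2 higher and 3 lower, where 24.9% of all genes were called, 11.6% higher and 13.3% lower. That count was 2 without shNT LPS replicate 3, 3 without shNT control replicate 1 and at most 7 with any other library left out. In shNR4A2 cells 6 of 32 were called, 4 higher and 2 lower, against 19.3% of all genes, 9.23% higher and 10.1% lower. In shNR4A3 cells 7 of 29 were called, 3 higher and 4 lower, against 28.1% of all genes, 13.1% higher and 15.0% lower. With the replicate block shNR4A3 gave 12 (39.4% of all genes) and shNR4A2 gave 9 (30.1% of all genes). The genes added were PCDHGC3, PCDH7, PCDHB6, DSC3 and CDH23 in shNR4A3 cells and PCDHGC3, PCDHB5 and PCDHB9 in shNR4A2 cells. TPM of the median gene tested was lower with LPS, by a log2 of -0.23 in shNT, -0.28 in shNR4A2 and -0.24 in shNR4A3 cells, and by -0.01, -0.02 and -0.01 after TMM scaling (edgeR's normalisation). Log2 fold changes below are relative to that shift.

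PCDH8, an activity-regulated protocadherin of neurons, was lower with LPS in all 3 lines. In shNT cells it was at 2.15, 3.32 and 3.07 TPM unstimulated and at 0.609, 1.19 and 0.812 TPM with LPS. The corresponding values were 1.73, 2.37 and 2.33 TPM and 0.314, 1.01 and 0.398 TPM in shNR4A2 cells, and 2.36, 4.00 and 1.70 TPM and 0.395, 0.519 and 0.455 TPM in shNR4A3 cells. Every LPS-stimulated library was below every unstimulated one of its line. The log2 fold changes were -1.49 ± 0.27, -1.64 ± 0.36 and -2.31 ± 0.35 (adjusted p = 0.00118, 0.00651 and 0.000547). In shNR4A2 cells PCDH8 had 58, 64 and 73 counts unstimulated and 8, 28 and 12 with LPS. It passed the filter on low counts there through the unstimulated libraries, where it was high, so that test does not by itself show a fall.

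PCDH10, PCDH17 and PCDH9, delta protocadherins known mostly from nervous tissue, were low and had higher means with LPS. PCDH10 went from 0.294, 0.369 and 0.281 TPM to 0.617, 0.727 and 0.602 TPM in shNT cells (1.26 ± 0.28, adjusted p = 0.00478). In shNR4A2 cells its log2 fold change was 2.27 ± 0.39 (adjusted p = 0.00126), with 20, 14 and 5 counts unstimulated and 50, 43 and 50 with LPS. PCDH10 passed the filter on low counts there through the LPS-stimulated libraries, where it was high, so that test does not by itself show a rise. In shNR4A3 cells the log2 fold change was 1.47 ± 0.42 (adjusted p = 0.0211). The shNR4A3 groups overlapped, and that call was lost without any of 4 single libraries, with adjusted p up to 0.0919. PCDH17 rose from 0.148, 0.252 and 0.178 TPM to 0.583, 0.489 and 1.31 TPM in shNR4A2 cells (2.34 ± 0.46, adjusted p = 0.00302). It rose from 0.120, 0.0543 and 0.0957 TPM to 0.821, 0.401 and 0.804 TPM in shNR4A3 cells (3.10 ± 0.48, adjusted p = 0.000547). PCDH17 had 8, 11 and 9 counts in unstimulated shNR4A2 and 5, 2 and 4 in unstimulated shNR4A3 libraries. It passed the filter on low counts through the LPS-stimulated libraries, where it was high, so these tests do not by themselves show a rise. In shNT cells PCDH17 was too low to be tested, at 0.118 ± 0.0722 TPM unstimulated and 0.336 ± 0.182 TPM with LPS. PCDH9 rose in shNR4A2 (1.23 ± 0.29, adjusted p = 0.0095) and shNR4A3 cells (1.72 ± 0.35, adjusted p = 0.00326). In shNT cells its change was 0.47 ± 0.27 (adjusted p = 0.234), and the difference between the lines is given with the interaction.

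**Figure D4:**
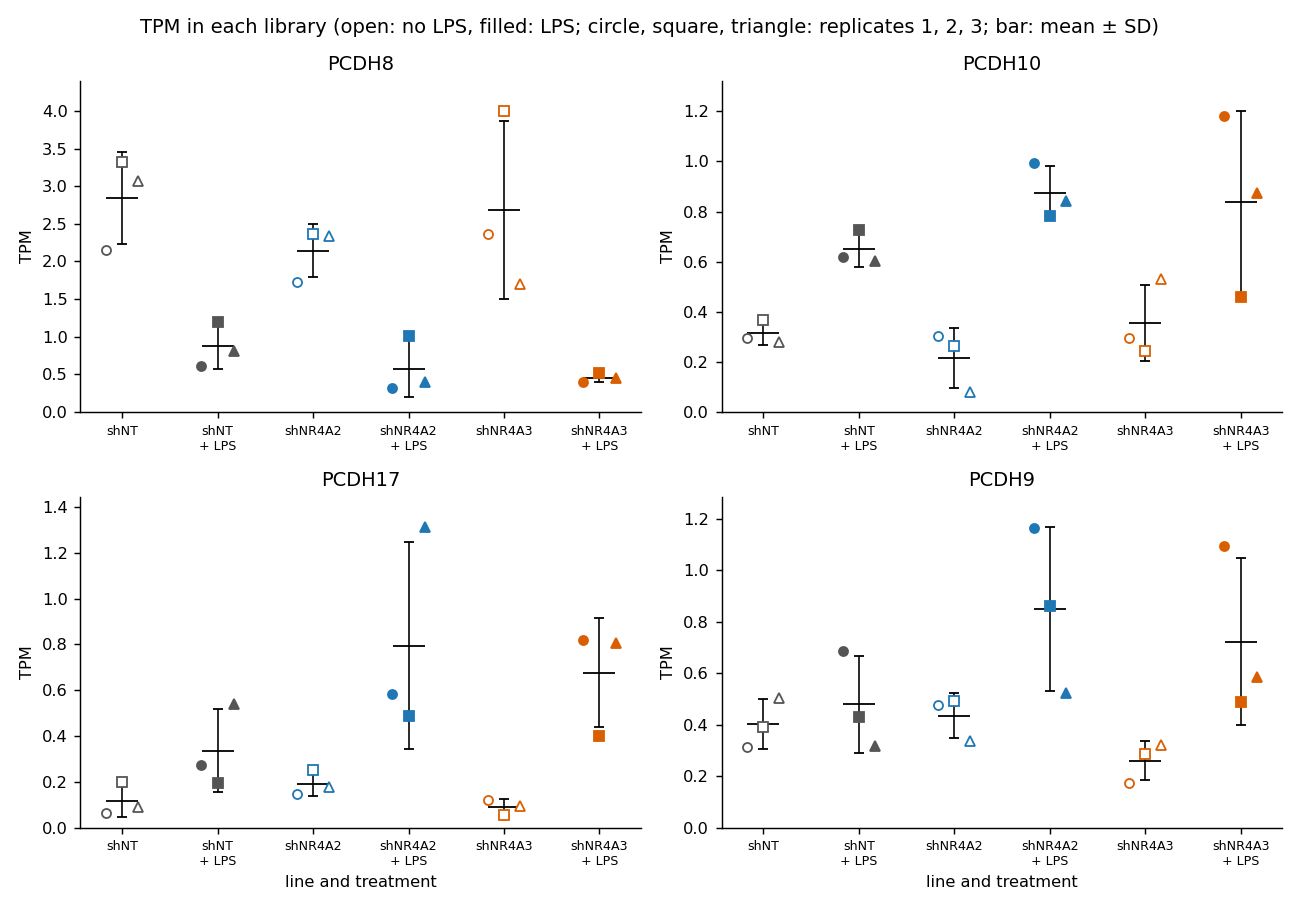
TPM (y axis) of 4 protocadherins in each of the 18 libraries by line and treatment (x axis), with open symbols for unstimulated and filled symbols for LPS-stimulated cells, a circle, square or triangle for replicate 1, 2 or 3, and bars for mean ± SD. PCDH8 is lower with LPS in all 3 lines and stays above 0.3 TPM, while PCDH10, PCDH17 and PCDH9 reach at most 1.31 TPM.

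DSC3 rose with LPS from 3.61, 2.83 and 4.93 TPM to 4.45, 4.90 and 6.20 TPM in shNT cells (0.68 ± 0.19, adjusted p = 0.0172) and from 4.06, 4.19 and 4.66 TPM to 5.18, 6.59 and 9.40 TPM in shNR4A2 cells (0.99 ± 0.21, adjusted p = 0.00537). The shNT groups overlapped, and that call was lost without shNT LPS replicate 3 or shNT control replicate 2 (adjusted p up to 0.0904) and with all 18 libraries in 1 fit (adjusted p = 0.0596). In shNR4A3 cells the change was 0.84 ± 0.30 (adjusted p = 0.0599, with the block 0.0088), and it also passed with all 18 libraries in 1 fit, with no filter on low counts and without shNR4A3 LPS replicate 2. Clustered genes fell where they were called. PCDHAC2 fell in shNR4A2 cells by 0.99 ± 0.22 on the log2 scale (adjusted p = 0.00735). It fell in the shNR4A3 line by 0.81 ± 0.20 (adjusted p = 0.0105). PCDHB9 fell by 0.74 ± 0.19 in shNR4A3 cells (adjusted p = 0.0136) and PCDHB5 by 0.47 ± 0.12 there (adjusted p = 0.0123) and by 0.38 ± 0.10 in shNT cells (adjusted p = 0.0135). PCDHB6 fell by 0.33 ± 0.11 in shNT cells (adjusted p = 0.0418), a call that DESeq2 did not make (adjusted p = 0.0992) and that was lost with all 18 libraries in 1 fit, with no filter on low counts and without any of 5 single libraries (adjusted p up to 0.156). The PCDHB5 calls were lost without shNR4A3 LPS replicate 3 in shNR4A3 cells (adjusted p = 0.0627) and without shNT LPS replicate 3 or shNT control replicate 1 in shNT cells (adjusted p up to 0.056). DSG2 did not pass in any line, at 0.12 ± 0.097, 0.12 ± 0.15 and 0.06 ± 0.19, nor did PCDH7, at 0.19 ± 0.13, 0.23 ± 0.22 and 0.36 ± 0.19 (adjusted p = 0.179 or more). With the block PCDH7 was called in shNR4A3 cells (adjusted p = 0.034).

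The interaction of line and LPS asked whether a line changed the response to LPS, which is the same as whether LPS changed the effect of the hairpin. No member was called in shNR4A2 (38 tested) or shNR4A3 (35 tested), and edgeR called 0.0% of all genes in either. At an unadjusted p under 0.05 there were 2 and 4 members, where 365 of 16674 and 824 of 16428 genes tested were under it. DESeq2 called 0 and 0 members. For DSG2 the interaction was 0.01 ± 0.18 in shNR4A2 cells (95% interval -0.34 to 0.36) and -0.07 ± 0.24 in shNR4A3 cells (-0.53 to 0.40). For PCDH7 it was 0.04 ± 0.30 (-0.54 to 0.63) and 0.16 ± 0.25 (-0.33 to 0.65). PCDH9, called with LPS in both knockdown lines and not in shNT, had interactions of 0.76 ± 0.44 (-0.10 to 1.63) and 1.25 ± 0.49 (0.29 to 2.21), neither called (adjusted p = 0.942 or more). Without a filter on low counts the shNR4A3 interaction of PCDH9 passed the limit, at 1.27. PCDH17 had 0.58 ± 0.82 and 1.34 ± 0.85.

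The 79 members outside the named genes had no group mean above 0.953 TPM. Of these, 38 reached 0.1 TPM in a group and 41 did not, and 13 were tested in at least 1 comparison. With low counts filtered, no block and only the libraries of a comparison fitted, edgeR called 0, which the naming rule fixed, since a called gene was named. An unadjusted p under 0.05 in at least 1 comparison was found for 6. The share of all genes with such a p in at least 1 comparison is not given here, so the 6 cannot be read against it. DESeq2 called 0. The edgeR count does not cover fits without that filter or with all 18 libraries in 1 fit. With the block PCDHB14 was called in unstimulated shNR4A2 and shNR4A3 cells (adjusted p = 0.024 and 0.0366), PCDHA1 and CDHR1 in shNR4A2 cells with LPS (0.019 and 0.00873), and CDH6 for LPS in shNT cells (0.0237), where replicate numbers did not pair the libraries. These 4 are named for those calls, after their values were seen. Each passed the filter on low counts through the group where it was high, so those calls do not by themselves show a difference.

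Genes that work with cadherins were read from 6 lists. Among catenins and junction partners, which link cadherins to the cytoskeleton, 12 of 16 were tested, and 1, 1, 1 and 0 were called in shNR4A2 cells without and with LPS and shNR4A3 cells without and with LPS. Over all genes 6.45%, 6.96%, 7.23% and 6.45% were called in these 4 comparisons, and 23.6%, 28.1%, 14.8% and 21.8% with the replicate block, and these are the shares behind the counts of all 6 lists. PERP, a desmosomal membrane protein, rose in shNR4A2 cells (0.48 ± 0.12 and 0.65 ± 0.11, adjusted p = 0.0285 and 0.00961), from 21.5 ± 1.5 to 30.1 ± 2.15 TPM without LPS. PKP2, the plakophilin partnered with DSG2 and DSC2 in heart, fell in unstimulated shNR4A3 cells from 0.806 ± 0.0983 to 0.211 ± 0.108 TPM (-1.83 ± 0.39, adjusted p = 0.0116). The median log2 fold changes of the tested genes were 0.0077, 0.17, -0.068 and 0.023. In shNR4A3 cells with LPS, where edgeR called none, 4 had an unadjusted p under 0.05 and DESeq2 called 0. Over all genes tested, 3358 of 15800, 3617 of 15590, 3206 of 15322 and 3581 of 15578 had such a p in the 4 comparisons. With the replicate block 3, 4, 2 and 2 of these 12 genes were called, near the share of all genes.

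Cadherin relatives outside the rule gave 2, 1, 2 and 3 of 8 called. CLSTN2, a calsyntenin, rose in all 4 comparisons (0.51 ± 0.12, 0.91 ± 0.14, 0.68 ± 0.12 and 1.01 ± 0.13). DCHS1, the ligand of FAT4, fell in unstimulated shNR4A2 cells (-0.69 ± 0.15) and in shNR4A3 cells without and with LPS (-1.17 ± 0.17 and -0.88 ± 0.19). CELSR3 rose in shNR4A3 cells with LPS (0.62 ± 0.15). The block gave 2, 4, 3 and 6. Repressors of cadherin genes, which bind E-boxes, gave 3, 3, 2 and 1 called of 9, 9, 8 and 9. TWIST2 rose in shNR4A2 cells from 0.547 ± 0.236 to 3.53 ± 0.245 TPM (2.68 ± 0.37, adjusted p = 0.00157) and with LPS by 2.27 ± 0.45, and SNAI2 rose in unstimulated shNR4A2 cells by 1.89 ± 0.41. SNAI3 rose in unstimulated shNR4A3 cells (0.88 ± 0.13), whereas TCF4 fell in all 4 comparisons (-0.69 ± 0.14, -0.53 ± 0.12, -0.98 ± 0.14 and -0.77 ± 0.14). With the block 5, 6, 2 and 3 repressors were called.

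Proteases that shed or cleave cadherins gave 0, 1, 2 and 2 of 13 called, with ADAM9 (0.51 ± 0.091 and 0.59 ± 0.083) and ADAM15 (0.42 ± 0.097 and 0.34 ± 0.081) higher in shNR4A3 cells without and with LPS and MMP9 lower in shNR4A2 cells with LPS (-1.19 ± 0.29). In unstimulated shNR4A2 cells 3 proteases had an unadjusted p under 0.05 and DESeq2 called 0. The block gave 4, 3, 4 and 5 of 13 proteases, where it called 14.8% to 28.1% of all genes. CTCF and the cohesin genes, which act in the choice of clustered protocadherin promoters, gave 0 of 9 called by edgeR in each of the 4 comparisons, with 3, 1, 2 and 0 at an unadjusted p under 0.05 and 0 by DESeq2 in each. The block gave 4, 1, 0 and 1. FAT and Hippo genes gave 1, 0, 1 and 2 called of 11, 12, 11 and 12, where 6.45% to 7.23% of all genes were called. WWTR1 rose in unstimulated shNR4A2 cells (0.99 ± 0.26), TEAD1 fell in unstimulated shNR4A3 cells (-0.57 ± 0.15), and with LPS in shNR4A3 cells FJX1 rose (1.95 ± 0.43) and TEAD4 fell (-0.81 ± 0.18). In shNR4A2 cells with LPS 6 FAT and Hippo genes had an unadjusted p under 0.05 and DESeq2 called 0, and the block gave 3, 7, 3 and 5 over the 4 comparisons.

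Marker genes were summed to see which cell types the libraries resembled. All 10 monocytic markers were detected, with SPI1 the most abundant by total count, and their summed TPM was 2495, 2091 and 2059 in unstimulated shNT libraries, 3584, 3060 and 3045 in shNR4A2 libraries and 3795, 3043 and 3200 in shNR4A3 libraries. With LPS the sums were 2463, 2005 and 1968 in shNT, 3641, 2840 and 2896 in shNR4A2 and 3538, 2907 and 3174 in shNR4A3. The summed level was higher in every knockdown library than in every shNT library of the same treatment, and of the 10 tested 4, 3, 5 and 4 were called higher and 0 lower in the 4 knockdown comparisons, LYZ and CSF1R in each. CD33 had a mean of 38.8 TPM in unstimulated shNT cells and 36.6 TPM in shNR4A3 cells, so not every marker followed the sum. These markers moved with the lower DSG2, DSC2 and PCDH7 of the same libraries, and their part in those results was not tested.

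The 10 epithelial markers summed to 13.0 ± 0.981 TPM in unstimulated shNT cells, mostly CLDN7 (8.04 TPM), and KRT5, KRT14, KRT19 and GRHL2 were under 0.1 TPM on average over the libraries. ESRP1, an epithelial splicing factor, was called lower in shNR4A3 cells with LPS, at a mean of 1.15 TPM against 2.21 TPM in shNT, beside the lower desmosomal genes of the same libraries. The list did not move as one there, at 8.05 ± 1.79 TPM in shNR4A3 and 8.67 ± 0.986 TPM in shNT cells. The means of CLDN7 (5.52 against 4.48 TPM), CLDN4 and EPCAM were higher than in shNT, and those of KRT8 and KRT18 lower. The part of ESRP1 in the lower desmosomal genes was not tested. The 10 neuronal markers summed to 1.95 ± 0.659 TPM, led by SNAP25, with STMN2 at 0 in every library. The 8 endothelial markers summed to 70.4 ± 6.96 TPM in unstimulated shNT cells, of which EGFL7 made up 64.0 TPM. KDR, the only one called, was lower in shNR4A2 cells without and with LPS and in unstimulated shNR4A3 cells. The list did not follow KDR. Its sum was 84.0 ± 20.0 TPM in unstimulated shNR4A2 and 78.3 ± 14.3 TPM in shNR4A3 cells, with mean EGFL7 at 78.0 and 73.5 TPM. The 9 fibroblast markers summed to 1.90 ± 0.333 TPM in unstimulated and 2.64 ± 0.481 TPM in LPS-stimulated shNT cells, 2.42 ± 0.0666 and 2.28 ± 0.483 TPM in shNR4A2 cells and 1.85 ± 0.121 and 2.45 ± 0.320 TPM in shNR4A3 cells. Beside the higher means of PCDH10, PCDH17 and PCDH9 with LPS, not all of them called, the mean of LUM went from 0, 0.0341 and 0 TPM to 0.882, 0.317 and 0.606 TPM in shNT, shNR4A2 and shNR4A3 cells. The mean of DCN went from 0.0108, 0.00427 and 0.00517 TPM to 0.0883, 0.122 and 0.2415 TPM. The mean of PDGFRB went the other way, from 0.705, 1.04 and 0.847 TPM to 0.484, 0.47 and 0.445 TPM. The part of these markers in the higher means of the protocadherins was not tested.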

How the data were processed

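RNA was sequenced from 18 libraries of polyadenylated RNA, 3 for each of 6 groups, and the authors deposited 1 file of raw counts per Ensembl gene for each library. The submitters' processing notes name Trimmomatic 0.36, STAR 2.5.2b, Subread 1.5.2 with featureCounts, and GRCh38. The annotation release, the strand setting and the treatment of reads over several genes are not given in the sources used here. Gene symbols were taken from GENCODE 29, which named 56898 of 57500 genes. No 2 libraries held identical counts.

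TPM was computed from the deposited counts and exon lengths. Counts were tested with edgeR 4.0.16 (R 4.3.3; TMM, filterByExpr, quasi-likelihood F test) on the 6 libraries of a comparison, or 12 for an interaction, with Benjamini-Hochberg adjustment over all genes tested and a limit of 0.05, and ± after a log2 fold change is its SE. DESeq2 1.42.0 was an alternative, as were RLE size factors, no filter on low counts, all 18 libraries in 1 fit, a 2-fold limit, a replicate block and each library left out. In simulated counts with 200 changed genes edgeR recovered 82.5% to 91.5% in the knockdown comparisons, 84.5% to 91.0% in the LPS comparisons, 79.0% to 85.0% between the knockdown lines and 67.5% to 70.5% in the interactions, and of its calls 7.3% to 10.64%, 5.06% to 9.9%, 4.49% to 7.06% and 3.57% to 4.08% were unchanged genes. Same-numbered libraries were taken as paired where each residual correlation exceeded 0.1, which was so in all pairwise comparisons but LPS in shNT cells. The study describes its RNA-seq values as coming from independent experiments, which the labels do not state, and p-values measure the spread between these libraries.

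Members and lists were chosen with earlier results of these data known. Genes were named if they were DSG2 or PCDH7, reached 1 TPM in a group or were called in a comparison. Of each list of other genes, at most 4 that were called in a knockdown comparison were named, by the size of their log2 fold change.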

Additional observations from a re-analysis of the deposited data

Results flagged for a closer look

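Levels differed between shNR4A2 and shNR4A3 cells, by the direct test of 1 line against the other, for 4 genes without LPS. The hairpin and the line cannot be told apart. The log2 differences were 0.81 for PCDHGC3, 1.59 for PCDH7, 1.61 for DSC3 and 1.77 for CDH15. With LPS levels differed for PCDH7 by 1.46, for DSC2 by 0.49, for DSC3 by 1.76 and for CDH23 by -0.61. The calls of CDH15 without LPS and of DSC2 and CDH23 with LPS were lost whichever single library was left out, that of PCDH7 with LPS without shNR4A3 LPS replicate 1 or 3, and that of DSC3 with LPS without shNR4A3 LPS replicate 1. CDH15 was also on opposite sides of shNT in every unstimulated library of the knockdown lines, with a log2 ratio of mean TPM of 1.31 in shNR4A2 cells and a lower level than shNT in shNR4A3 cells. That opposite placing was not tested as such.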

How the results depend on the processing

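Of 47 called member values, 27 reached the 2-fold limit and 20 did not. The 2-fold limit aside, 33 lost their call under no setting that gave an adjusted p, 21 of them at 2-fold or more, and 0 reversed. DESeq2 gave no adjusted p for PCDHGB4 (unstimulated shNR4A3 cells), which is among the 33, or for CDH15 (between the knockdown lines), and these are not in the following counts. Settings other than the 2-fold limit and leaving out a library kept the call in 225 instances and lost it in 8, and leaving out a library kept it in 228 and lost it in 54. Of 224 uncalled values of named members, 45 passed the limit under at least 1 setting, 43 of them with the replicate block.

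Counts of members called moved as follows. A 2-fold limit left 1 in unstimulated shNR4A2 against shNT cells, 5 and 4 in shNR4A3 against shNT cells without and with LPS, 2 and 4 for LPS in shNT and shNR4A3 cells, and 2 between the knockdown lines with LPS. Without a filter on low counts there were 5 and 6 in shNR4A2 cells without and with LPS, 14 in shNR4A3 cells with LPS, 8 between the knockdown lines without LPS and 1 (PCDH9) in the shNR4A3 interaction. With all 18 libraries in 1 fit there were 6 in shNR4A2 cells with LPS. Shares of all genes called at the 2-fold limit, without the filter or in 1 fit are not given here. Those counts therefore cannot be read against such a share. The replicate block gave 9 and 12 in shNR4A2 cells, 14 in shNR4A3 cells with LPS, 12 for LPS in shNR4A3 cells, and 10 and 8 between the knockdown lines. In shNT cells replicate numbers did not pair the libraries (lowest residual correlation 0.0598). There the block gave 8 of 33 members tested for LPS, where it called 5029 of 15711 genes. With a library left out the count for LPS in shNT cells ran from 2 (without shNT LPS replicate 3) to 7, and was 3 without shNT control replicate 1. Between the knockdown lines with LPS it ran from 0 (without shNR4A3 LPS replicate 1) to 2, and was 1 without shNR4A3 LPS replicate 3. A detection limit of 0.1 TPM left 64 of 104 members. The cause of these moves was not tested.

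Each line stands for 1 hairpin. With 3 libraries in a group, an exact permutation test of a single gene cannot go below 0.1, so the calls rest on the spread that edgeR shares across genes. Counts of members under 10 in all libraries say little about their level.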
